A study of Mus musculus with 12 samples.

Results

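The genes described here are the transcription factors around ATF4 and a set of genes that ATF4 is known to switch on: Atf4, Atf5, Atf3, Ddit3, Cebpg, Trib3, Nupr1, Asns, Ppp1r15a and Chac1. They are 10 of the 36047 genes with a transcript in the annotation, chosen by name as the factors of this axis with earlier results of these data known, and all 10 passed the filter on low counts. Liver RNA was sequenced from 12 male C57Bl/6J mice, 5 to 6 months of age, 3 per group, after 7 days on the diets. The labels number no replicates, so the numbers used here follow the order of the samples and only name the mice. The groups were RF.Ctrl (regular-fat control diet, 18% of energy from fat), RF.SAAR (regular-fat diet restricted in sulfur amino acids), HF.Ctrl (high-fat control diet, 60% of energy from fat) and HF.SAAR (high-fat diet restricted in sulfur amino acids). No transgene is given for any group, every diet lacked cysteine, and the SAAR diets also held less methionine, made up with glutamic acid. The mice were given deuterium-labeled drinking water, which the study used to follow protein turnover. All mice were housed singly and were food deprived for 4 h before collection. The SAAR and Ctrl diets of one fat level came from one supplier, but the RF and HF diets came from different suppliers, so that fat level and diet source cannot be told apart.

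When a cell lacks amino acids, kinases phosphorylate the initiation factor eIF2. Most translation then slows while the mRNA of Atf4, which carries short upstream reading frames, is translated more, a program called the integrated stress response. ATF4 pairs with partners such as C/EBPγ (Cebpg) and binds C/EBP-ATF response elements, raising amino acid synthesis and transport, tRNA charging, other stress factors (Atf5, Atf3, Ddit3) and feedback inhibitors (Trib3, Ppp1r15a). Because ATF4 is controlled in large part by translation, its mRNA level is not a measure of its protein, and no protein was measured in these files. In liver, restriction of an essential amino acid is a known trigger of this program.

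Promoter sequences are shown for the genes among the 10 that hold a known binding motif of these factors before the transcription start. All 10 genes have an entry in the RefSeq promoter table (build GRCm38.p6), 11 entries in all because Atf5 has more than one start, each running from 250 bases before to 50 bases after the start. Both strands were searched for TGATGNAA, the core of the C/EBP-ATF response element, for TGACGTCA, the cAMP response element, and for TTGCGCAA, the C/EBP palindrome. Matches of different motifs overlapped in 0 promoters. TGATGNAA was found for 5 of the 10 genes (Asns, Chac1, Atf3, Nupr1 and Trib3) and in 3.97% of all 32851 promoters. TGACGTCA was found for 1 gene, Ppp1r15a, and in 1.79% of all promoters, and TTGCGCAA for 0 of the 10 genes and in 0.183% of all promoters. A match is a string of letters and not a shown binding site. The 210 bases before the start are printed 5′ to 3′ in the direction of transcription, with the match in capitals, from chr6:7693210-7693419 (minus strand) for Asns, chr2:119351032-119351241 (plus strand) for Chac1, chr1:191183334-191183543 (minus strand) for Atf3, chr7:126625471-126625680 (minus strand) for Nupr1 and chr7:45526269-45526478 (minus strand) for Ppp1r15a.
Asns: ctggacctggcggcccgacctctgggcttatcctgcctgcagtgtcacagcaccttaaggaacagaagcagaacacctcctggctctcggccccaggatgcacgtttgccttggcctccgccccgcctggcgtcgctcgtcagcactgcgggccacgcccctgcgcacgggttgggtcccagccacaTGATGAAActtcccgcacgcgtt
Chac1: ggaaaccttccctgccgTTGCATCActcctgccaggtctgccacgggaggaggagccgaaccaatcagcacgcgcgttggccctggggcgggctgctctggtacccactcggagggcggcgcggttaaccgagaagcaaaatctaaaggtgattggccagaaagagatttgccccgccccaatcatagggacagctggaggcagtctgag
Atf3: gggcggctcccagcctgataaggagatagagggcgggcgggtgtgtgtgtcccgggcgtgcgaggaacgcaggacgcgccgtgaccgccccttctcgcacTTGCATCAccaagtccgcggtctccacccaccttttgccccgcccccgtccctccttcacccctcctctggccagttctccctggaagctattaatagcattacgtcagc
Nupr1: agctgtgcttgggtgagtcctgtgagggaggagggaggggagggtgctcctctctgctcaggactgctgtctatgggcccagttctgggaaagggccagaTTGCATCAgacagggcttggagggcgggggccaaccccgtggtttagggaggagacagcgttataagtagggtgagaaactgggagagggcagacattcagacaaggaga
Ppp1r15a: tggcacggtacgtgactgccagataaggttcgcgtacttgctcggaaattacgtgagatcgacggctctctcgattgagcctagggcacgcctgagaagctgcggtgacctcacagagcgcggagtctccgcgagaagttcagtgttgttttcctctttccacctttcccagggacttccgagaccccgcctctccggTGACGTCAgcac
The match begins 23 bases before the start in Asns, 193 bases before it in Chac1, 110 bases before it in both Atf3 and Nupr1, and 12 bases before it in Ppp1r15a. In Asns the motif reads in the direction of transcription, and in Chac1, Atf3 and Nupr1 on the opposite strand. The match in Trib3, TTACATCA, lies after the start, with its first base at position 15 of the transcript. The entries of Atf4, Atf5, Cebpg and Ddit3 hold none of the 3 motifs.

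Total estimated counts were 16203094 to 21230092 per mouse. The summed normalized CPM (counts scaled to a common library size) of the 8 hepatocyte markers were 85472 to 98243 in RF.Ctrl and 76515 to 84104 in RF.SAAR mice. On HF diets they were 80656 to 94110.5 in Ctrl and 78926.5 to 89656 in SAAR mice. The summed CPM of the 5 cholangiocyte markers were 35.2 to 42.885 in SAAR and 42.915 to 62.0 in Ctrl mice, so the ranges nearly touched. Most of this sum was Spp1 (28.8 to 48.8 CPM over all mice), and each other marker was at 7.72 CPM or less. The sums of the Kupffer, stellate, endothelial and white blood cell markers overlapped between SAAR and Ctrl mice at each fat level. The 20 markers of pancreatic acinar cells were spread unevenly over the groups, with the highest values in HF mice. Their summed CPM were 64.6 to 1042 in RF.Ctrl, 35.7 to 72.6 in RF.SAAR, 62.2 to 4282 in HF.Ctrl and 57.5 to 13121.5 in HF.SAAR mice. They were over 1000 in 5 mice (RF.Ctrl replicate 1, HF.Ctrl replicates 1 and 2, and HF.SAAR replicates 2 and 3). Of these 20 markers, 19 or 20 had a count in every mouse, and Pla2g1b was at 0 in 3 mice. The values that moved most without these 5 mice are given beside the result, from the 7 other mice with 1 mouse left in each HF group. In bulk liver, fewer cells of a type and less RNA per cell cannot be told apart.

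Levels of different genes were compared as TPM, a share of transcripts that allows for transcript length. Atf5 was the most abundant of the 10, with a mean of 219 TPM over the 12 mice, above the mean TPM of 96.8% of all tested genes. Atf4 followed with 56.2 TPM and Cebpg with 21.4 TPM. The next were Asns (14.4 TPM), Nupr1 (12.8), Ddit3 (9.93), Chac1 (8.07), Trib3 (7.62) and Ppp1r15a (4.69), and Atf3 was lowest with 1.82 TPM. Atf5, Atf4 and Cebpg kept this order among themselves in each mouse, but Cebpg was below Asns or Nupr1 in some mice. In HF.SAAR replicate 3 it had 32.4 TPM, against 40.8 for Asns and 71.2 for Nupr1. From Asns to Ppp1r15a the ranges over mice overlapped, from 1.58 to 40.8 TPM for Asns and from 3.31 to 7.40 for Ppp1r15a, so the order of neighbors there does not exceed the spread between mice. TPM are not scaled between mice, so groups were compared on normalized CPM.

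**Figure D1:**
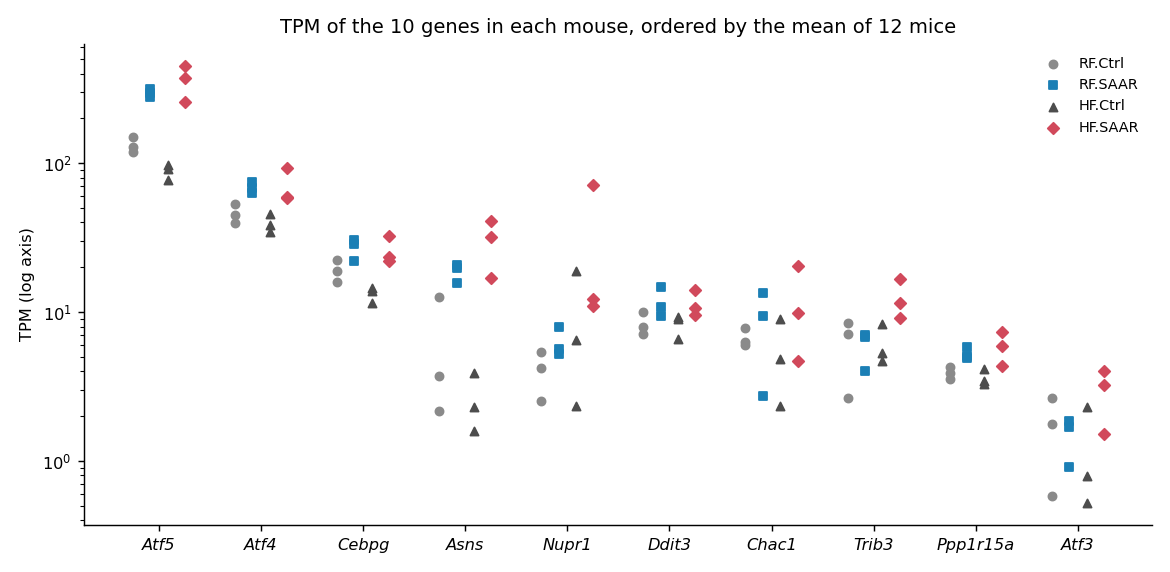
TPM of each gene (log axis) in each of the 12 mice, by group, with genes ordered from left to right by the mean over mice. Atf5 lies between 77.1 and 450.6 TPM and Atf3 between 0.522 and 4.01, while Asns and Nupr1 span the widest ranges.

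The first question was which of these genes differed between SAAR and Ctrl livers at each fat level. On RF diets Atf5 alone was called higher, and on HF diets Atf5 and Asns were called higher, and 0 of the 10 were called lower in either comparison. Averaged over both fat levels, Atf4, Atf5, Cebpg and Asns were called higher. A gene was called at a Benjamini-Hochberg adjusted p under 0.05 over all 14670 tested genes (edgeR quasi-likelihood test). Of all tested genes, 0.600% were called higher with SAAR on RF diets, 1.01% on HF diets and 3.22% in the average, beside 1, 2 and 4 of the 10. Because the 10 genes were chosen with earlier results of these data known, these shares are a description and not a test. The median log2 fold change of the 10 genes was 0.24 on RF and 0.67 on HF diets, and that of all genes was about 0 in both. In sign, 8 of the 10 were above 0 on RF and 10 of 10 on HF diets, where it was 8 of 10 without the 5 mice over 1000 acinar CPM. It was also 8 on HF diets without HF.SAAR replicate 3 alone, the highest HF.SAAR mouse for each of the 10 genes. On RF diets it was 6 without RF.SAAR replicate 3, so the 10 signs are not separate observations. Fold changes and signs are relative to the trimmed-mean (TMM) scaling, because scaling by library size alone moves the median of all genes to 0.16 and 0.17.

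**Figure D2:**
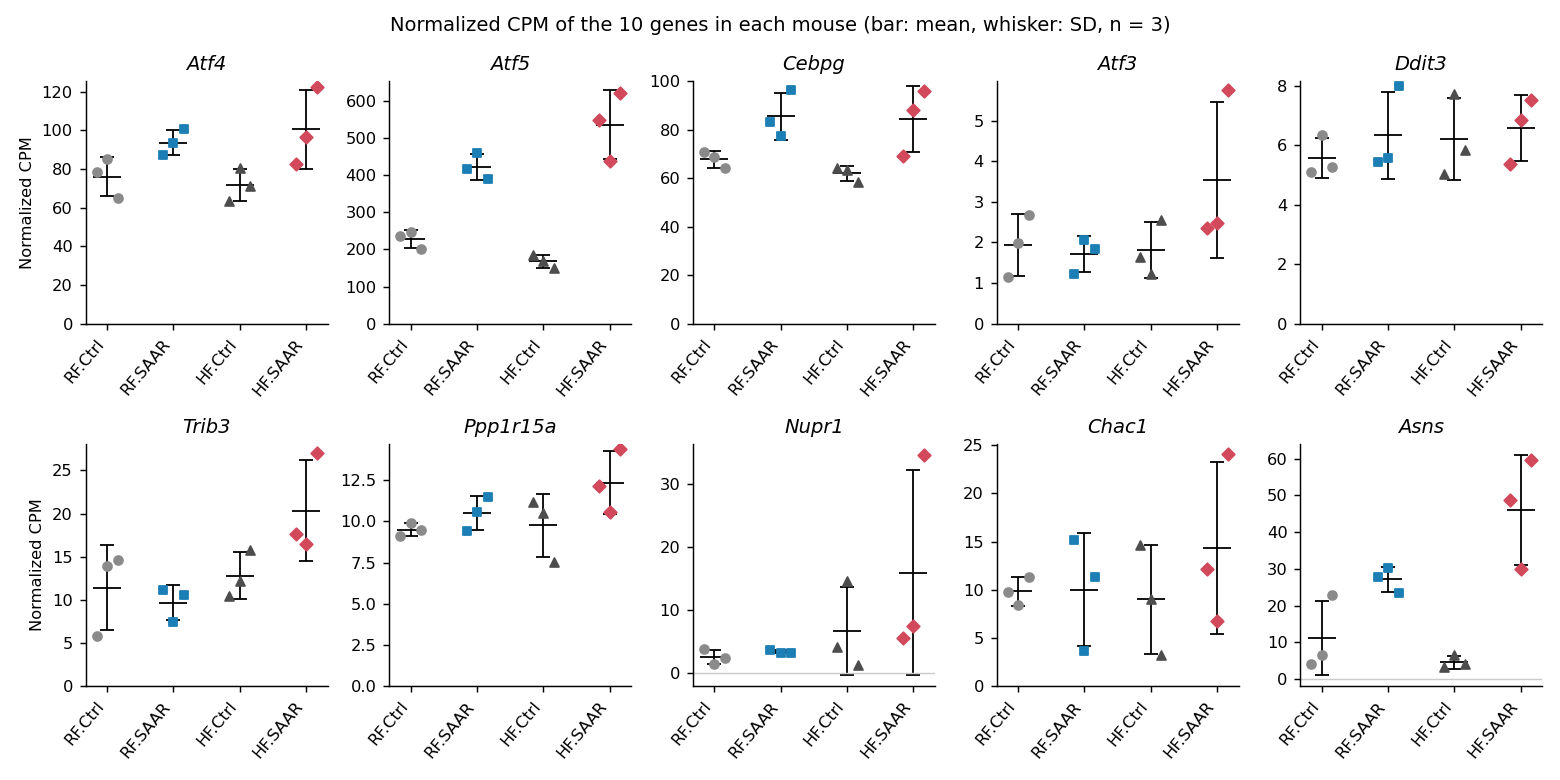
Normalized CPM of the 10 genes, one panel per gene with its own linear axis. Each point is 1 mouse, the bar is the group mean and the whisker the SD of 3 mice. For Atf5 and Asns the 6 SAAR mice all lie above the 6 Ctrl mice, and for Asns 1 RF.Ctrl mouse, at 22.8 CPM, lies next to the SAAR mice.

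Counting mice instead of p-values, the 3 SAAR mice were all above the 3 Ctrl mice for Atf4, Atf5, Cebpg and Asns on RF diets and for these and Trib3 on HF diets. That is 4 and 5 of 10, beside 8.51% and 8.89% of all tested genes. All 6 SAAR mice were above all 6 Ctrl mice for Atf5 and Asns, 2 of 10, beside 1.94% of all genes.

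Atf4 (chr15:80255184-80257541, build GRCm38) encodes the central factor. Its normalized CPM were 78.3, 84.9 and 64.9 in RF.Ctrl and 87.1, 93.4 and 100.4 in RF.SAAR mice. On HF diets they were 63.6, 80.4 and 70.9 in Ctrl and 82.4, 96.3 and 122 in SAAR mice. The SAAR mice were higher within each fat level, but 1 HF.SAAR mouse (82.4) was below 1 RF.Ctrl mouse (84.9). The log2 fold change was 0.30 (SE 0.15, adjusted p = 0.413) on RF and 0.49 (SE 0.15, adjusted p = 0.136) on HF diets. Averaged over both fat levels Atf4 rose 1.31-fold (log2 fold change 0.39, SE 0.11, adjusted p = 0.0385). This call lies close to the threshold: it held in 10 of 23 alternative analyses, with a log2 fold change of 0.26 to 0.56 and an adjusted p of 0.00428 to 0.396. When 1 mouse was left out it held only without RF.Ctrl replicate 2, HF.Ctrl replicate 2 or HF.SAAR replicate 1, and without any 1 of the other 9 mice the adjusted p was 0.0506 to 0.107.

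Atf5 (chr7:44812256-44816658) encodes a factor related to ATF4, which acts on mitochondrial stress genes among others. Its CPM were 236, 248 and 202 in RF.Ctrl, 416, 459 and 390.0 in RF.SAAR, 186, 168 and 151 in HF.Ctrl and 550.4, 438 and 623 in HF.SAAR mice. No SAAR mouse overlapped a Ctrl mouse, and the HF.Ctrl mice were below the RF.Ctrl mice. Atf5 rose 1.84-fold on RF diets (log2 fold change 0.88, SE 0.13, adjusted p = 0.00508) and 3.19-fold on HF diets (1.68, SE 0.14, adjusted p = 2.00e-05). On HF diets the call held in 24 of 24 alternatives (log2 fold change 1.55 to 1.85, adjusted p up to 0.0231) and on RF diets in 23 of 24. The exception was the test of its most abundant transcript among all transcripts (log2 fold change 0.88, adjusted p = 0.0571). Of all 14670 genes Atf5 had the rank 8 by p on HF diets.

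Cebpg (chr7:35046422-35056573), the dimer partner of ATF4, was close to Atf4 in size of change. The RF.Ctrl mice had 70.6, 68.6 and 64.0 CPM and the RF.SAAR mice 83.1, 77.4 and 96.1, against 64.4, 63.2 and 58.4 in HF.Ctrl and 69.3, 88.1 and 95.8 in HF.SAAR mice. Only the lowest SAAR mouse (69.3) fell within the range of the Ctrl mice of the other fat level. The log2 fold change was 0.34 (SE 0.12, adjusted p = 0.233) on RF and 0.45 (SE 0.12, adjusted p = 0.0957) on HF diets. In the average Cebpg rose 1.31-fold (0.39, SE 0.088, adjusted p = 0.0166), a call kept in 20 of 23 alternatives with adjusted p from 0.00071 to 0.287. Without the 5 mice over 1000 acinar CPM the average log2 fold change was 0.26 (adjusted p = 0.396) for Atf4 and 0.30 (adjusted p = 0.287) for Cebpg, and on HF diets it was 0.20 (SE 0.23) and 0.23 (SE 0.21). With only the 2 highest of these mice left out (HF.SAAR replicate 3 and HF.Ctrl replicate 2), a choice made after seeing the data, it was 0.35 for both (adjusted p = 0.0576 and 0.0606). With acinar CPM as a covariate it was 0.40 for both (adjusted p = 0.0177 and 0.00536).

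The stress-induced factors Atf3 and Ddit3 were not called in any comparison. Atf3 (chr1:191170296-191218039), an immediate responder to many stresses, was the least abundant of the 10, with CPM of 1.14, 1.99 and 2.67 in RF.Ctrl, 1.23, 2.07 and 1.85 in RF.SAAR, 1.64, 1.22 and 2.56 in HF.Ctrl and 2.36, 2.48 and 5.75 in HF.SAAR mice. The high value belongs to 1 HF.SAAR mouse, and the other SAAR mice lay within the range of the Ctrl mice. On the log2 scale the change was −0.17 (SE 0.43, adjusted p = 0.934) on RF and 0.97 (SE 0.42, adjusted p = 0.350) on HF diets, and −0.44 and −0.14 without the 5 mice over 1000 acinar CPM. Ddit3 (chr10:127290774-127296288), which encodes CHOP, a factor tied to cell death under prolonged stress, ranged from 5.05 to 8.01 CPM over all mice. Its groups overlapped, with 5.57 ± 0.673 CPM in RF.Ctrl, 6.34 ± 1.45 in RF.SAAR, 6.21 ± 1.37 in HF.Ctrl and 6.59 ± 1.11 in HF.SAAR (mean ± SD, n = 3 per group). The log2 fold change was 0.18 (95% interval −0.27 to 0.64) on RF and 0.08 (−0.37 to 0.54) on HF diets, which leaves room for a change in either direction. Without the 5 mice over 1000 acinar CPM it was −0.15 (SE 0.38) on HF diets.

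The feedback genes were not called either. Trib3 (chr2:152337422-152344032), a pseudokinase that restrains ATF4 and CHOP, had 5.78, 13.9 and 14.6 CPM in the RF.Ctrl group against 11.1, 7.42 and 10.5 in the RF.SAAR group. On HF diets it had 10.5, 12.2 and 15.8 CPM in Ctrl and 17.6, 16.4 and 27.0 in SAAR mice. The RF groups overlapped fully, whereas the HF.SAAR mice were above the other 9 mice. The log2 fold change was −0.24 (SE 0.33, adjusted p = 0.854) on RF and 0.67 (SE 0.32, adjusted p = 0.435) on HF diets. Of the 3 HF.SAAR mice 2 were over 1000 acinar CPM, and without the 5 such mice the log2 fold change of Trib3 was −0.55 (SE 0.19, adjusted p = 0.297) on RF and 0.14 (SE 0.29, adjusted p = 0.917) on HF diets. Ppp1r15a (chr7:45522916-45526268) encodes GADD34, which directs a phosphatase to eIF2. Its group means were 9.50 ± 0.413 CPM in RF.Ctrl, 10.5 ± 1.04 in RF.SAAR, 9.75 ± 1.93 in HF.Ctrl and 12.3 ± 1.92 in HF.SAAR (SD, n = 3). The log2 fold change was 0.14 (95% interval −0.21 to 0.50) on RF and 0.34 (−0.01 to 0.69) on HF diets. In the average Ppp1r15a was at 0.24 (SE 0.12, adjusted p = 0.263), and it passed the threshold with library size scaling alone (0.42, adjusted p = 0.0295). In the 7 mice under 1000 acinar CPM it was 0.66 (SE 0.27, adjusted p = 0.508) on HF diets.

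Asns (chr6:7675169-7693254) encodes asparagine synthetase, which makes asparagine from aspartate with glutamine as the nitrogen donor. It had the largest fold change of the 10 at both fat levels with all mice, an order that on RF diets depends on single mice. Its CPM were 4.23, 6.55 and 22.8 in RF.Ctrl, 27.7, 30.3 and 23.4 in RF.SAAR, 3.21, 6.67 and 4.02 in HF.Ctrl and 48.6, 29.9 and 59.6 in HF.SAAR mice. RF.Ctrl replicate 3 was near the lowest SAAR mouse, while the other 5 Ctrl mice were at 6.67 CPM or less and all 6 SAAR mice at 23.4 or more. Asns rose 9.84-fold on HF diets (log2 fold change 3.30, SE 0.61, adjusted p = 0.0324) and 4.90-fold in the average of both fat levels (2.29, SE 0.42, adjusted p = 0.0127). On RF diets the log2 fold change was 1.29 (SE 0.56, adjusted p = 0.366). Without RF.Ctrl replicate 3 it was 2.32 (SE 0.36) on RF diets and passed the threshold (adjusted p = 0.0233). Without RF.Ctrl replicate 1 it was 0.90 (adjusted p = 0.550), just under the 0.91 of Atf5, and without RF.Ctrl replicate 2 it was 1.01 (adjusted p = 0.642). Without the 5 mice over 1000 acinar CPM it was 0.90 (adjusted p = 0.666), with Atf5 at 0.91.

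For other genes of the program that mouse was not always at one end. Among the 3 RF.Ctrl mice it had the highest value for 11 of 30 other ATF4 target genes and the lowest for 8 of them, and it was lowest of the 3 for Atf4 (64.9 CPM), Atf5 (202 CPM) and Cebpg (64.0 CPM). It was picked out after its Asns value had been seen. The HF call of Asns was less steady than its size. Over 24 alternatives the log2 fold change was 3.07 to 3.66, but the adjusted p ran from 3.11e-06 (DESeq2) to 0.475 (without the 5 mice over 1000 acinar CPM), and it passed the threshold in 10 of the 24. Leaving out any 1 of the 6 HF mice in turn gave log2 fold changes of 3.07 to 3.66 and adjusted p of 0.0522 to 0.146.

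Chac1 (chr2:119351229-119354381) encodes an enzyme that degrades glutathione, a tripeptide that contains cysteine. Its CPM were 9.78, 8.39 and 11.4 in RF.Ctrl, 15.1, 3.66 and 11.3 in RF.SAAR, 14.7, 9.06 and 3.29 in HF.Ctrl and 12.1, 6.77 and 24.1 in HF.SAAR mice. Values varied several-fold within 3 of the groups, and the groups overlapped. Its log2 fold change was 0.03 (95% interval −1.45 to 1.5) on RF and 0.68 (−0.79 to 2.15) on HF diets, an interval that on RF diets spans changes of more than 2-fold in either direction. In the 7 mice under 1000 acinar CPM it was 1.86 (SE 1.05, adjusted p = 0.692) on HF diets.

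Nupr1 (chr7:126623249-126630861) encodes a small stress-induced chromatin protein that is also abundant in stressed pancreas. Its CPM were 3.72, 1.43 and 2.37 in RF.Ctrl, 3.62, 3.18 and 3.13 in RF.SAAR, 4.03, 14.6 and 1.22 in HF.Ctrl and 5.52, 7.44 and 34.7 in HF.SAAR mice. The 2 highest mice, HF.SAAR replicate 3 (34.7 CPM) and HF.Ctrl replicate 2 (14.6 CPM), were also those with the most acinar marker RNA (13121.5 and 4282 CPM), and HF.SAAR replicate 2 was next in both (7.44 and 2840 CPM). With all mice the log2 fold change was 0.41 (SE 1.0, adjusted p = 0.934) on RF and 1.26 (SE 0.89, adjusted p = 0.659) on HF diets. In the 7 mice under 1000 acinar CPM the SAAR mice had 3.13 to 5.52 CPM and the Ctrl mice 1.22 to 2.37. How many other genes separate these 7 mice in this way was not counted. The log2 fold change in them was 0.81 (SE 0.32) on RF and 2.15 (SE 0.51) on HF diets, with 1 mouse left in each HF group. In these 7 mice the average over both fat levels was 1.48 on the log2 scale (SE 0.30), against 0.83 (SE 0.67, adjusted p = 0.566) in all 12. With acinar CPM as a covariate it was 1.06 (SE 0.35, adjusted p = 0.112). The part of pancreatic RNA in the Nupr1 values was not tested.

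**Figure D3:**
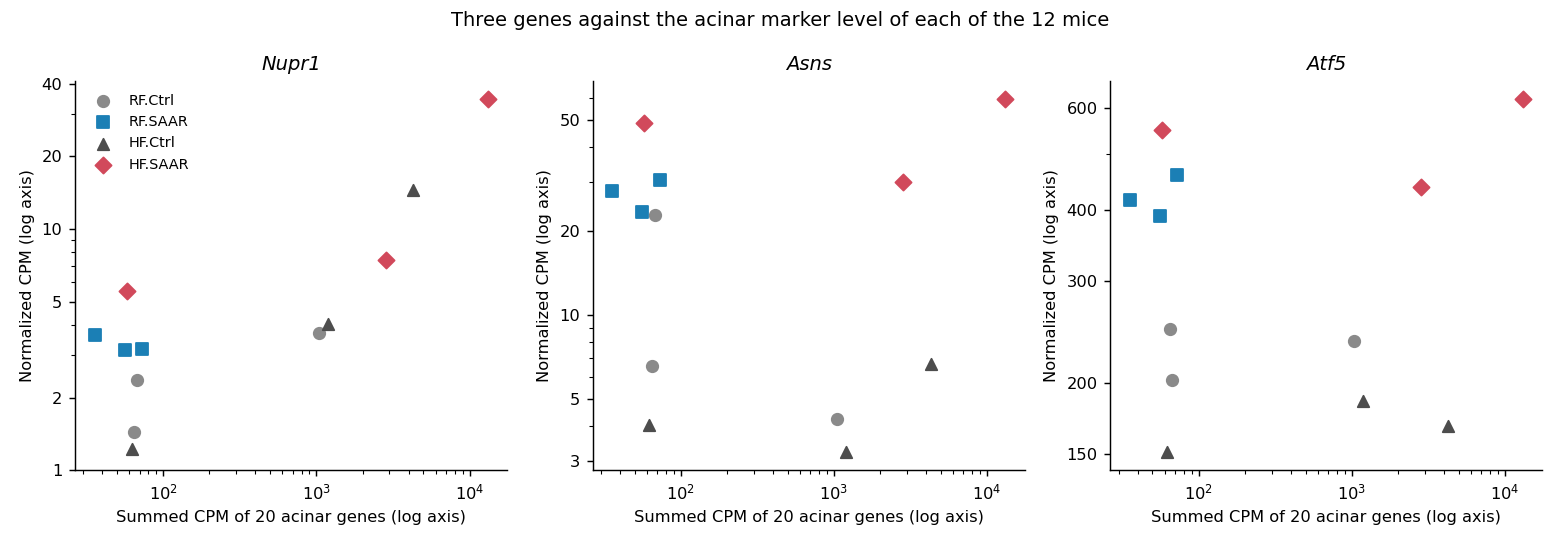
Normalized CPM of Nupr1, Asns and Atf5 (log axes) against the summed CPM of 20 acinar markers (log axis), 1 point per mouse with color and shape by group. Nupr1 is highest, at 34.7 and 14.6 CPM, in the 2 mice with the most acinar RNA, while the Asns and Atf5 values of SAAR mice are high at both ends of the acinar range.

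For Asns and Atf5 the acinar level ran across both diets. The HF.SAAR mice with 57.5, 2840 and 13121.5 acinar CPM had 48.6, 29.9 and 59.6 CPM of Asns, in this order. Their Atf5 was 550.4, 438 and 623 CPM. The HF.Ctrl mice with 62.2, 1193 and 4282 acinar CPM had 4.02, 3.21 and 6.67 CPM of Asns. Their Atf5 was 151, 186 and 168 CPM. With acinar CPM as a covariate the log2 fold change of Asns on HF diets was 3.31 (adjusted p = 0.0528).

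A further question was whether the response differed between fat levels. In HF.Ctrl vs. RF.Ctrl 0 of the 10 genes were called by edgeR and by DESeq2, and 1 (Atf5) had an unadjusted p under 0.05. edgeR called 0% of all genes there, 527 genes (3.59%) had an unadjusted p under 0.05, and DESeq2 called 5 higher and 26 lower. Atf5 was lower in each HF.Ctrl than in each RF.Ctrl mouse, as were 4.42% of all genes, with a log2 fold change of −0.44 (95% interval −0.73 to −0.16, adjusted p = 1.0). Asns was at −1.25 there (SE 0.61, adjusted p = 1.0), and at −0.21 without RF.Ctrl replicate 3, the mouse with 22.8 CPM. When HF.SAAR was set against RF.SAAR, 0 of the 10 were called by either tool, beside 0.0477% of all genes with edgeR. DESeq2 called 54 genes higher and 31 lower there. Of the 10, 4 had an unadjusted edgeR p under 0.05 (Atf5, Atf3, Trib3 and Nupr1), as had 5.59% of all genes. The HF.SAAR mice were all above the RF.SAAR mice for Atf3, Trib3 and Nupr1, 3 of 10, beside 5.47% of all genes. The log2 fold changes there were 0.35 (SE 0.13) for Atf5, 1.04 (SE 0.42) for Atf3, 1.07 (SE 0.32) for Trib3 and 2.26 (SE 0.94) for Nupr1. Without the 5 mice over 1000 acinar CPM, Nupr1 was at 0.73 (SE 0.37), Trib3 at 0.85 (SE 0.23) and Atf3 at 0.45 (SE 0.45). With acinar CPM as a covariate, Nupr1 was at 0.21 (SE 0.58), Trib3 at 1.26 (SE 0.42), Atf3 at 1.04 (SE 0.56) and Atf5 at 0.27 (SE 0.16). In that fit 6 of the 10 genes were above 0, against 9 without the covariate. With no covariate and HF.SAAR replicate 3 left out, 6 were above 0 too.

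The interaction of diet and fat compares the SAAR effect on HF diets with that on RF diets in one test. It was above 0 for 9 of the 10 genes, with Ddit3 at −0.10 (SE 0.30). The median was 0.72 for the 10 genes and 0.009 for all genes. Among the 10 genes 0 passed the threshold with edgeR, beside 0.00682% of all genes, and 2 had an unadjusted p under 0.05, beside 3.15% of all genes. Without the 5 mice over 1000 acinar CPM the interaction was above 0 for 7 of the 10. It was also above 0 for 7 with acinar CPM as a covariate. Without HF.SAAR replicate 3 alone, the highest HF.SAAR mouse for each of the 10 genes, it was above 0 for 8. With all 12 mice, the 2 genes with an unadjusted p under 0.05 were Asns and Atf5. Their interaction was 2.01 (95% interval 0.17 to 3.86, adjusted p = 0.999) for Asns and 0.79 (0.39 to 1.2, adjusted p = 0.949) for Atf5. Atf5 had the rank 15 of 14670 genes by p. DESeq2 called Atf5 (0.79, adjusted p = 0.0485) among 12 genes above 0 and 4 below 0 over all genes, and the adjusted p over all 23 alternatives for Atf5 ran from 0.0485 to 1.0. Without RF.Ctrl replicate 3 the interaction of Asns was 0.97.

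**Figure D4:**
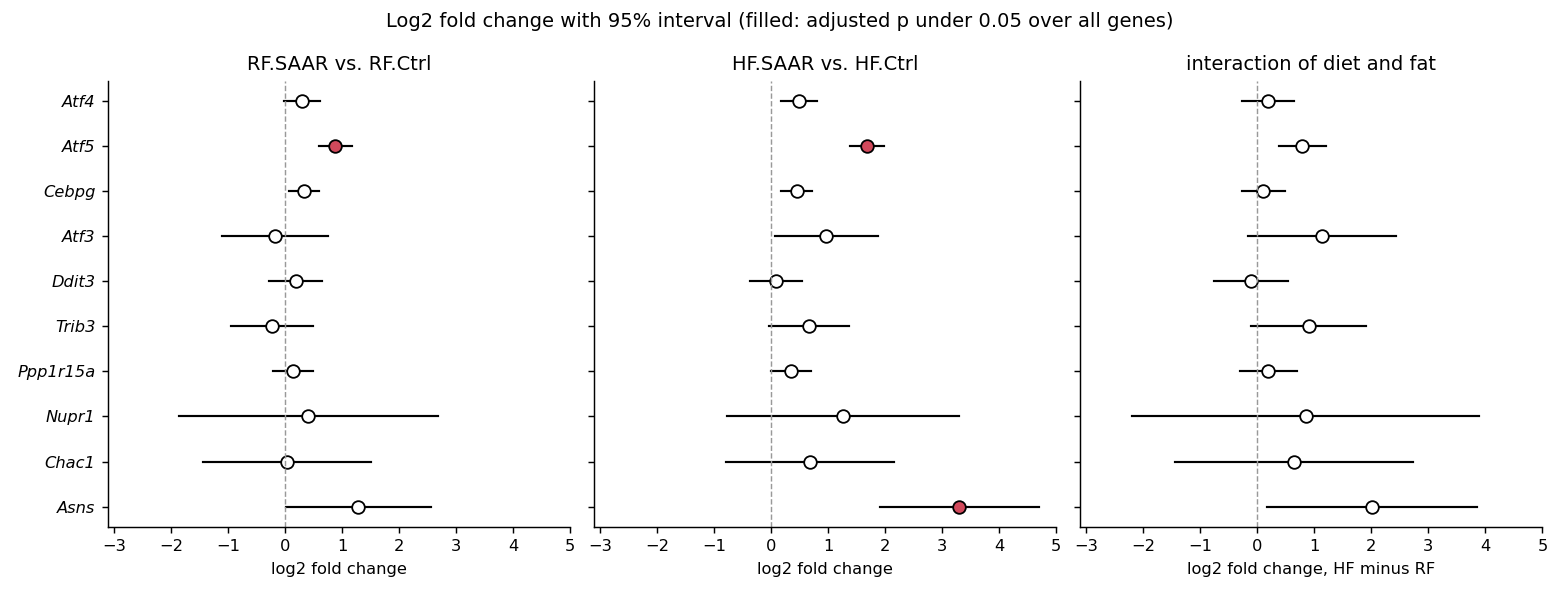
Log2 fold change (point) and 95% interval (line) of the 10 genes for SAAR against Ctrl on RF diets, the same on HF diets, and their difference (the interaction), with filled points for an adjusted p under 0.05 over all genes. Atf5 is filled in both diet comparisons at 0.88 and 1.68, Asns on HF diets at 3.30, and no point is filled in the interaction.

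Other parts of the pathway were described by lists written from general knowledge. Of 32 other known ATF4 target genes 30 were tested. On RF diets 3 were called higher (Psat1, Pck2 and Aldh1l2) and 0 lower, on HF diets 8 higher and 0 lower, and in the average 10 higher and 0 lower. The median log2 fold change was 0.34, 0.67 and 0.59. Over all genes 0.600%, 1.01% and 3.22% were called higher and 0.886%, 0.961% and 3.70% lower in these comparisons. Psat1, an enzyme of serine synthesis, had the largest change of those called on RF diets, from 2.98 ± 1.70 CPM to 15.8 ± 4.24 (SD, n = 3 each), or 2.42 on the log2 scale (SE 0.41, adjusted p = 0.0158). On HF diets it rose from 1.28 ± 0.552 to 25.2 ± 6.04 CPM (4.32, SE 0.46, adjusted p = 0.000762). Mthfd2, a mitochondrial folate enzyme, was at 3.31 ± 0.368 CPM in RF.Ctrl, 7.58 ± 0.121 in RF.SAAR, 1.08 ± 0.144 in HF.Ctrl and 12.7 ± 6.19 in HF.SAAR. It rose by 3.55 on the log2 scale on HF diets (SE 0.34, adjusted p = 9.76e-05) and was at 1.19 on RF diets (SE 0.30, adjusted p = 0.0692). The mitochondrial enzymes Pck2 and Aldh1l2 rose on both, Pck2 by 1.36 and 1.88 and Aldh1l2 by 2.18 and 1.77 on the log2 scale. Phgdh, the first enzyme of serine synthesis, rose by 2.72 on HF diets (SE 0.49, adjusted p = 0.0132).

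Over all genes 13.6% had an unadjusted edgeR p under 0.05 on RF diets and 12.4% on HF diets, the background for such counts in the lists. Of all genes, 3.22% were called higher and 3.70% lower in the average of both fat levels. The 12 cytosolic tRNA synthetases had 0 calls on RF diets (4 at an unadjusted edgeR p under 0.05) and 2 on HF diets (5 at such a p). The 2 were Gars and Sars, which charge glycine and serine tRNA and rose by 0.73 and 0.58 on the log2 scale. Of the 17 eIF2 kinases and regulators, 0 were called at either fat level (2 at an unadjusted edgeR p under 0.05 in each), and Eif2ak3, the kinase PERK, rose by 0.44 in the average (SE 0.12, adjusted p = 0.0448). Of 22 other bZIP partners, 0 were called at either fat level (4 and 3 at an unadjusted edgeR p under 0.05). In the average Atf6 and Nfe2l1 rose by 0.38 and 0.30 on the log2 scale, and Xbp1 fell by 0.64 (SE 0.17, adjusted p = 0.0457). The 16 targets of IRE1 and ATF6, the other arms of the unfolded protein response, lay on the opposite side of 0, with a median log2 fold change of −0.37 on RF and −0.28 on HF diets and 15 of 16 below 0 in each. Of them Pdia6, a disulfide isomerase of the endoplasmic reticulum, fell on RF diets by 0.68 (SE 0.10, adjusted p = 0.00490), and 0 were called on HF diets. At an unadjusted edgeR p under 0.05 there were 8 of the 16 on RF and 3 on HF diets. In the average Pdia6, Sdf2l1, Edem1 and Hsp90b1 fell, by 0.49, 0.73, 0.26 and 0.27. Of 16 immediate-early genes tested, Gadd45b, a growth arrest gene, rose at both fat levels by 2.30 and 2.28 (adjusted p = 0.0161 and 0.0107), and Klf6, a zinc-finger factor, by 0.81 on HF diets (adjusted p = 0.0369).

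**Figure D5:**
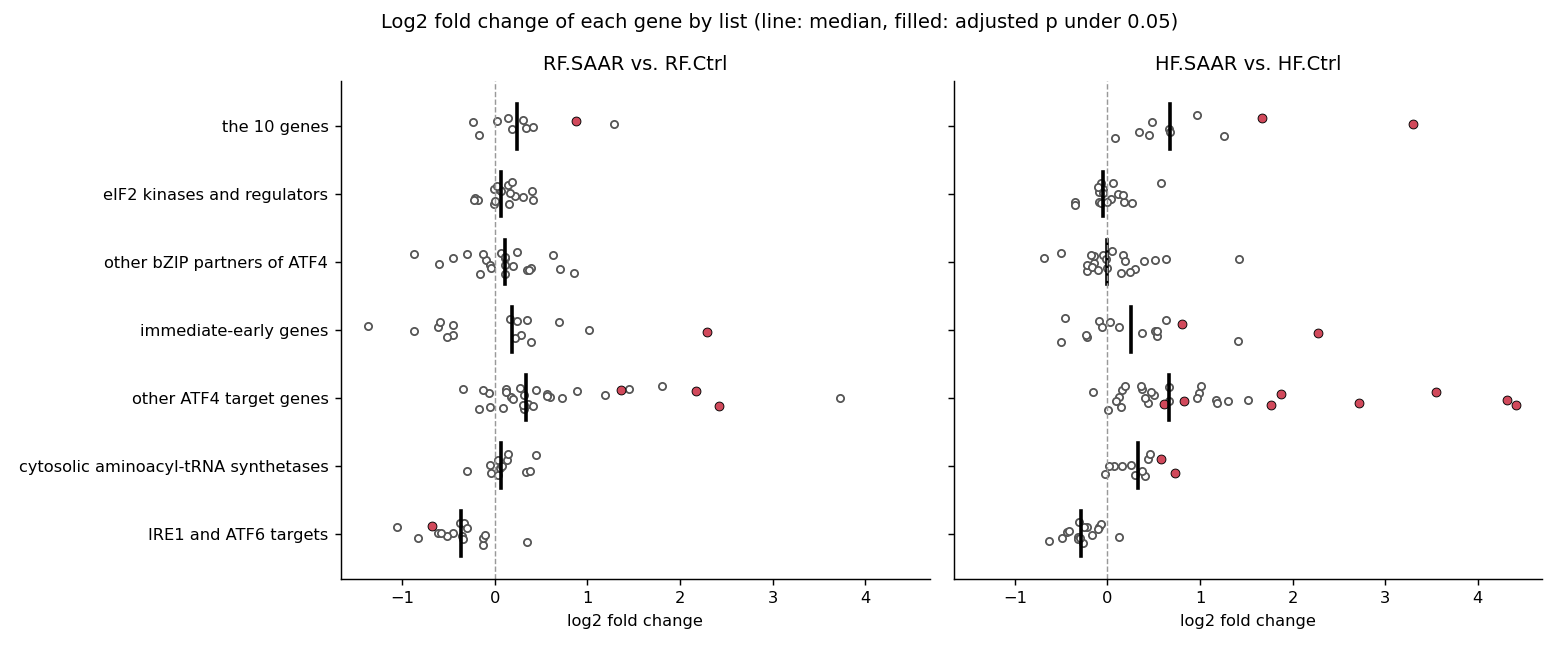
Log2 fold change of every tested gene of 7 lists for SAAR against Ctrl on RF diets and on HF diets, 1 point per gene. The black line is the median of the list and filled points have an adjusted p under 0.05 over all genes. The medians of the 10 genes (0.24 and 0.67) and of the other ATF4 targets (0.34 and 0.67) lie above 0, and those of the IRE1 and ATF6 targets (−0.37 and −0.28) below 0.

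The genes whose log2 CPM followed Asns and Atf5 most closely over the 12 mice were named by Pearson's r, given as a description. The mice fall into Ctrl and SAAR clusters, so r was also computed after removing the mean of each group. For Asns the highest r among 14669 genes were those of Pip4p2 (0.95), Ctps2 (0.95), Sorbs3 (0.93), Ctsa (0.93) and Eef1a1 (0.93). With group means removed Ctps2, which encodes CTP synthase 2, kept an r of 0.93, and the others were at 0.63 to 0.73. Ctps2 had 6.18, 8.03 and 10.6 CPM in RF.Ctrl mice, so that it was highest in the mouse with the high Asns value. For Atf5 they were Cyp39a1 (0.97), Mthfd2 (0.96), Hspa9 (0.96), Idh2 (0.96) and Gstm1 (0.96), and with group means removed they ranged from −0.07 (Gstm1) to 0.72 (Mthfd2). Among the 10 genes themselves, Asns and Atf5 had an r of 0.88 over all mice and −0.08 with group means removed, whereas Atf4 and Cebpg had 0.87 and 0.69 and Atf4 and Ddit3 0.66 and 0.79.

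Most counts of each gene came from 1 transcript. That share was 94.5% for Atf4, 99.2% for Atf5, 96.1% for Cebpg, 97.5% for Asns, 99.0% for Trib3 and 100% for Chac1, and 82.0% for Ddit3, 89.2% for Atf3 and Ppp1r15a and 91.9% for Nupr1. The transcript of Atf4 with a retained intron held 7.40% of the gene's counts in RF.Ctrl, 6.41% in HF.Ctrl, 4.68% in RF.SAAR and 4.17% in HF.SAAR mice, with 2.92 to 8.95% over single mice; this difference was not tested. Atf5 overlaps Nup62 and Il4i1 on the opposite strand, Ddit3 overlaps Mars and Ppp1r15a overlaps Tulp2. Whether the reads were counted by strand is not given in the sources used here, so reads of such partners cannot be told apart where they overlap. A further gene named Ddit3 overlaps it on the same strand and was at 0 counts in all mice.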

How the data were processed

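RNA of frozen liver from 12 mice was sequenced from both ends after polyA selection. According to the methods, the authors used FastQC and cutadapt on the reads, then pseudoaligned them (kallisto) against Ensembl mouse transcripts. The deposited estimated counts are the expected numbers of read pairs per transcript, without normalization or filter, and the deposited TPM values by the authors allow for effective transcript length and have one fixed sum per mouse. In the labels, the field named diet holds the fat level and the field named dietary fat content holds Ctrl or SAAR, and groups were taken from their values. The deposited effective lengths were used for one alternative.

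Counts were summed per gene over 116816 transcripts found in the GENCODE annotation of GRCm38 (1673 transcripts with 1.08% of counts were not found), rounded and fitted with edgeR 4.0.16 and limma 3.58.1 under R 4.3.3: filterByExpr by group, TMM factors (0.863 to 0.998 in Ctrl and 0.980 to 1.11 in SAAR mice), robust quasi-likelihood fits of all 12 mice with a coefficient per group, and Benjamini-Hochberg adjustment over 14670 genes. The common biological coefficient of variation was 0.215. The standard error is the size of the log2 fold change divided by the square root of F. The log2 CPM for correlations used a prior count of 2. Without molecular identifiers the reads are not independent molecules, and all errors given rest on differences between mice. An exact test of 1 value in 3 against 3 mice cannot pass 0.05.

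The 10 genes and all lists were chosen with earlier results of these data known. Named are all 10 genes, the called genes of each list with the smallest p (at most 4 in each direction) and the 5 genes with the highest r to Asns and to Atf5. RF.Ctrl replicate 3 was singled out after its values had been seen. Alternatives were RLE size factors, library size alone, no filter, at least 10 counts in every mouse, effective-length offsets, only the compared groups, DESeq2 1.42.0, transcripts in place of genes, an acinar covariate, leaving out mice over 1000 acinar CPM, and leaving out each mouse in turn. Leaving out the 2 mice highest in acinar CPM, and a block by runs of consecutive title numbers, were added after seeing the data. Promoters are from RefSeq.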

Additional observations from a re-analysis of the deposited data

How the results depend on the processing

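The number of the 10 genes called was 1 for SAAR against Ctrl on RF diets, 2 on HF diets, 4 in the average of both fat levels and 0 in the interaction. On RF diets it was 0 with transcripts in place of genes and 1 to 2 when 1 mouse was left out, with 2 (Atf5 and Asns) without RF.Ctrl replicate 3. On HF diets it was 4 with library size alone and with DESeq2 (Atf4, Atf5, Cebpg and Asns), and 1 (Atf5) with no filter, with the acinar covariate, without mice over 1000 acinar CPM and without the 2 mice highest in acinar CPM, the last added after seeing the data. Leaving out 1 mouse gave 1 to 2 on HF diets, with Asns lost without RF.SAAR replicates 1 or 2 or any HF mouse, and Cebpg gained without HF.SAAR replicate 1. With effective-length offsets the 2 were Atf5 and Cebpg. In the average it was 2 with transcripts (Atf5 and Asns), without mice over 1000 acinar CPM (Atf5 and Nupr1) and without the 2 mice highest in acinar CPM (Atf5 and Asns), 3 or 4 when 1 mouse was left out, and 5 with library size alone, where Ppp1r15a was called too. In the interaction it was 1 with DESeq2 (Atf5). The cause of these shifts was not tested, but leaving out mice over 1000 acinar CPM keeps 7 mice, with 1 in each HF group that is assumed to vary like the others. For single genes, 1378 values stayed on their side of the threshold with the direction of a call, 32 lost a call and 10 gained one, and 0 calls turned direction. Most of the 1378 were values not called in the main fit, so their number does not measure how steady the calls were. The calls held in between 10 of 24 alternatives (Asns on HF diets) and 24 of 24 (Atf5 on HF diets). Values of genes that were not called turned sign in some alternatives, as did Ddit3 in 7 of 24 for HF.SAAR vs. RF.SAAR.

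The labels give no replicate numbers and name no batch, but the titles fall into 3 runs of 4 consecutive numbers with 1 mouse of each group in each, and what a run marks is not given in the sources used here. With these runs as a replicate block, added after seeing the data, the number called was 1 on RF diets, 1 on HF diets (Atf5, with Asns at 3.27 and an adjusted p of 0.0582), 4 in the average and 0 in the interaction. Over all genes the calls went from 218 to 348 on RF diets, from 289 to 410 on HF diets and from 1015 to 1328 in the average. Deviations from the group means correlated over 0.1 in 13 of 18 pairs of mice of one run (−0.11 to 0.35), and 12 of 12 mice were on average closest to their own run, which is a hint from the data and not the design.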
